A study of Homo sapiens with 8 samples.

Results

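The core and linker histone genes of the HIST1, HIST2, HIST3 and HIST4 clusters were followed in ESO26 cells, a line established from an oesophageal adenocarcinoma, with and without knockdown of HNF4A. They were selected as every gene symbol of the expression table that starts with HIST1H, HIST2H, HIST3H or HIST4H, which gave 70 of 30755 symbols. Single genes were tested where their normalized counts averaged 10 or more over the 4 RNA-seq libraries, which held for 35 of the 70 and for 15577 symbols in all. The tested members were thus selected on that average, and the family itself was taken up with earlier results of these libraries known. RNA-seq libraries were labelled as ESO26 with HNF4A knockdown (siHNF4A, a small interfering RNA against the HNF4A transcript) in 2 cases and as ESO26 control in 2 cases. Dose, time and the kind of RNA given to the control cells are not stated in the labels, nor whether libraries of a group came from separate cultures, so each p-value measures the spread between these libraries, which may be technical. The series text speaks of sequencing in triplicate, while 2 libraries per group were analysed here. Binding sites came from 1 ChIP-seq library for HNF4A and 1 for GATA4 carrying a Flag tag, both in ESO26 cells. All groups share this single cell line.

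Histones package DNA. An octamer of H2A, H2B, H3 and H4 forms the core of the nucleosome, and the linker histone H1 sits where DNA enters and leaves it. The replication-dependent genes lie in clusters, with the largest on chromosome 6, lack introns and are transcribed mainly in S phase. Their mRNAs usually end in a conserved stem-loop in place of a poly(A) tail, while some of them can also give polyadenylated transcripts in cells that leave the cycle. Replication-independent variants such as H2A.Z and H3.3 are encoded elsewhere, are polyadenylated and are made throughout the cycle. Whether poly(A) RNA was selected for these libraries is not given in the sources used here.

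The siRNA target was checked first. HNF4A, the nuclear receptor that was knocked down, had 4129 and 3937 normalized counts in control 1 and 2 and 1140 and 932 in siHNF4A 1 and 2, which matches the labels of all 4 libraries. Normalized counts summed to between 17912507 and 18613685 per library. Judged from the smallest values of rarely seen genes, the sequencing depth relative to control 1 was 1.11 in control 2, 1.37 in siHNF4A 1 and 1.22 in siHNF4A 2. In control 1 and 2, 10 and 13 of the 70 histone symbols were listed at 0, and in siHNF4A 1 and 2, 6 and 7. Over all symbols these numbers were 5479, 5640, 4260 and 4362. Control 2, the deeper of the controls, thus had more symbols at 0 than control 1. The part of depth in the histone values was not tested. The epithelial markers EPCAM, CDH1, KRT8, KRT18, KRT19, CLDN4 and ELF3 were all present, with summed values of 98385 and 104229 in the controls and of 91596 and 90843 in the siHNF4A libraries. Of these 7 genes EPCAM, KRT8, KRT18 and CLDN4 were called lower and KRT19 higher. That is 57.1% lower and 14.3% higher, beside 8.11% and 6.02% over all tested genes. Markers of squamous, stromal, immune and endothelial cells summed to 260 and 164 in the controls and to 320 and 324 in the siHNF4A libraries. VWF, an endothelial marker, and KRT14, a squamous keratin, were the 2 of their 7 tested genes that were called, both higher. That is 28.6% called higher, beside 6.02% over all tested genes. Of the 7 tested genes 6 had a positive log2 fold change, with a median of 0.57. The stromal gene COL1A1 (0.57) and the immune gene CD14 (0.70) had both siHNF4A libraries above both controls, the squamous keratin KRT5 (-1.21) had both below, and in the stromal gene DCN (0.092) and the endothelial gene CDH5 (0.17) the groups overlapped. Their part in the histone values was not tested.

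Histone transcripts were higher as a family after HNF4A knockdown. Over the 70 symbols the summed normalized counts were 3667 and 4065 in the control libraries and 7038 and 6753 in the siHNF4A libraries, a ratio of group means of 1.78. The groups did not overlap, and the exact two-sided permutation p of 0.333 is the smallest that 2 against 2 libraries can give. Of the 70 symbols 58 had a higher group mean in the knockdown, 11 had a lower one and HIST1H3PS1, a pseudogene, was listed at 0 in all 4 libraries. In these bulk libraries a change in the number of cells of a kind and a change in RNA per cell cannot be told apart.

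Among the 35 genes tested, 34 had a positive log2 fold change, and 14 were called in limma with Benjamini-Hochberg adjustment over all 15577 genes, all of them higher. For comparison 14.1% of all tested genes were called in either direction, 6.02% higher and 8.11% lower. The median log2 fold change of the 35 was 0.75, against -0.0073 over all tested genes. In 31 of the 35 both siHNF4A libraries lay above both control libraries, as did 26.9% of all tested genes. Since 4 members averaged 10 or more only through the knockdown libraries, the 31 members whose control mean alone reached 10 were counted as well. They held the same number of calls, 14, with a median of 0.71.

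The level of a gene bears on how readily it is called. Among genes averaging 10 to 100 normalized counts, 60.2% of all genes had a positive log2 fold change, with a median of 0.12, and 2.53% were called higher. The 23 histone genes of this range had a median of 0.59, and 4 of them were called. Among genes averaging 100 or more, the median over all genes was -0.034 and 7.51% were called higher. All 12 histone genes of that range had a positive log2 fold change, with a median of 0.83, and 10 of them were called. HIST1H2AI (10.2) and HIST1H4E (14.02) averaged just above the limit of 10, and HIST1H2AD (9.22) and HIST1H1E (8.996) just below it.

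**Figure D1:**
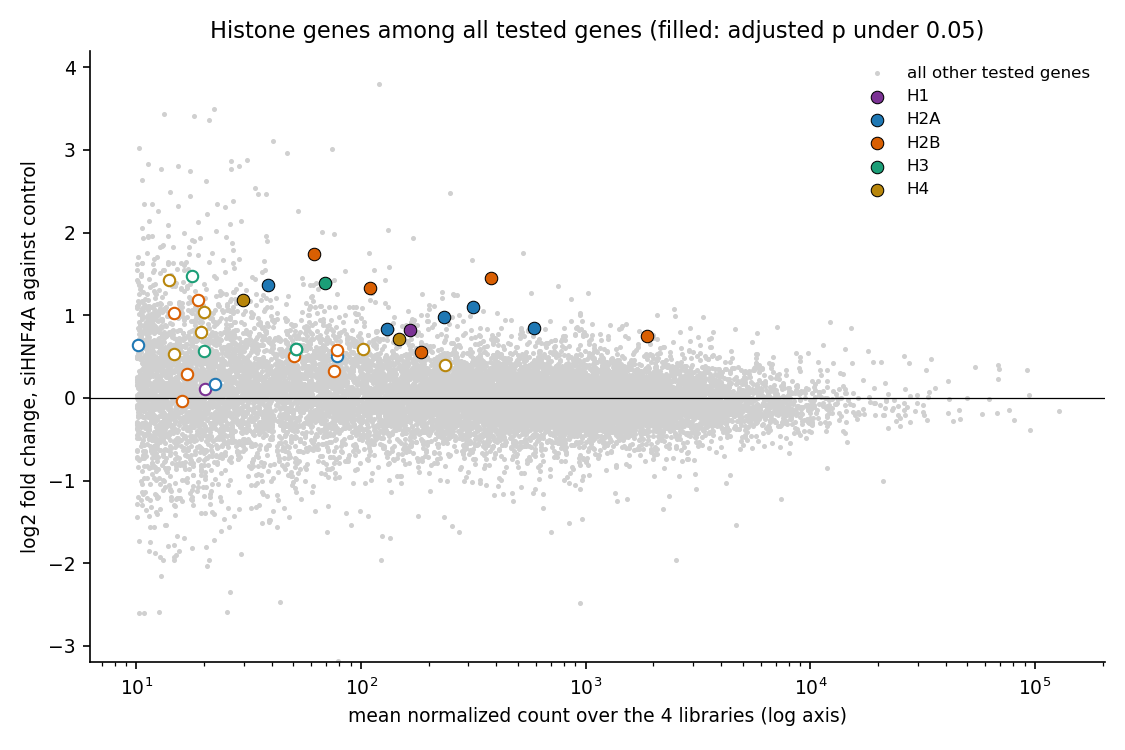
Log2 fold change in siHNF4A against control (y axis) against the mean normalized count over the 4 libraries (x axis, log scale) for each tested gene. Coloured circles are the 35 histone genes by class, filled where called, and grey points are all other tested genes; 34 histone genes lie above 0.

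The number of histone calls varied with the libraries, the filter and the variance model. It was 9 without control 1, 7 without siHNF4A 1, 7 without siHNF4A 2, 7 without the filter on low values, 9 after quantile normalization and 0 without the variance trend, where 23 of the 35 had an unadjusted p under 0.05 and no gene of the whole table was called. HIST1H2AC, HIST1H2AG, HIST1H2BD, HIST1H2BG, HIST1H2BJ, HIST1H2BK and HIST2H2AA4 were the 7 genes called in each setting that kept the trend and listed them singly.

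The ratio of the knockdown to the control sum lay between 1.56 and 1.86 in the 5 classes with each symbol counted as listed. Summed over all listed members, H1 genes (7 symbols) went from 152 ± 43.8 to 259 ± 10.3 normalized counts (SD, n = 2 here and for the other classes), a ratio of 1.70. H2A genes (16 symbols) had 1009 ± 52.1 and 1879 ± 110.3, a ratio of 1.86. H2B genes (19 symbols) had 2076 ± 116 and 3729 ± 28.5, a ratio of 1.80. H3 genes (13 symbols) had 157 ± 22.3 and 294 ± 53.7, a ratio of 1.86, and H4 genes (15 symbols) had 470.5 ± 46.8 and 735 ± 1.14, a ratio of 1.56. HIST2H3A and HIST2H3C carry identical values, and with the 2 counted once the H3 sum went from 117 ± 21.8 to 232 ± 49.4, a ratio of 1.99. In each of the 5 classes both knockdown libraries exceeded both controls, with the same exact permutation p of 0.333. Differences between the classes were not tested.

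H2B took 53.1 to 54.9% of the histone sum over the 4 libraries, H2A 25.7 to 27.8%, H3 3.79 to 4.71% and H1 3.31 to 4.51%. H4 made up 11.9 and 12.4% of the control sums but 10.4 and 10.9% of the siHNF4A sums. For H4 both siHNF4A libraries lay below both controls, while for H1, H2B and H3 the groups overlapped. H2A was higher in both siHNF4A libraries, by little over control 1 (26.5% in control 1 and 26.7% in siHNF4A 2). These differences were not tested. These are shares of normalized counts, which are not divided by transcript length, so they are not shares of molecules. HIST1H2BK alone made up 36.2% of the control sum and 34.2% of the knockdown sum. Without the gene with the highest mean of each class, the log2 ratio of sums was 0.67 for H1, 0.93 for H2A, 1.01 for H2B, 0.72 for H3 and 0.81 for H4.

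**Figure D2:**
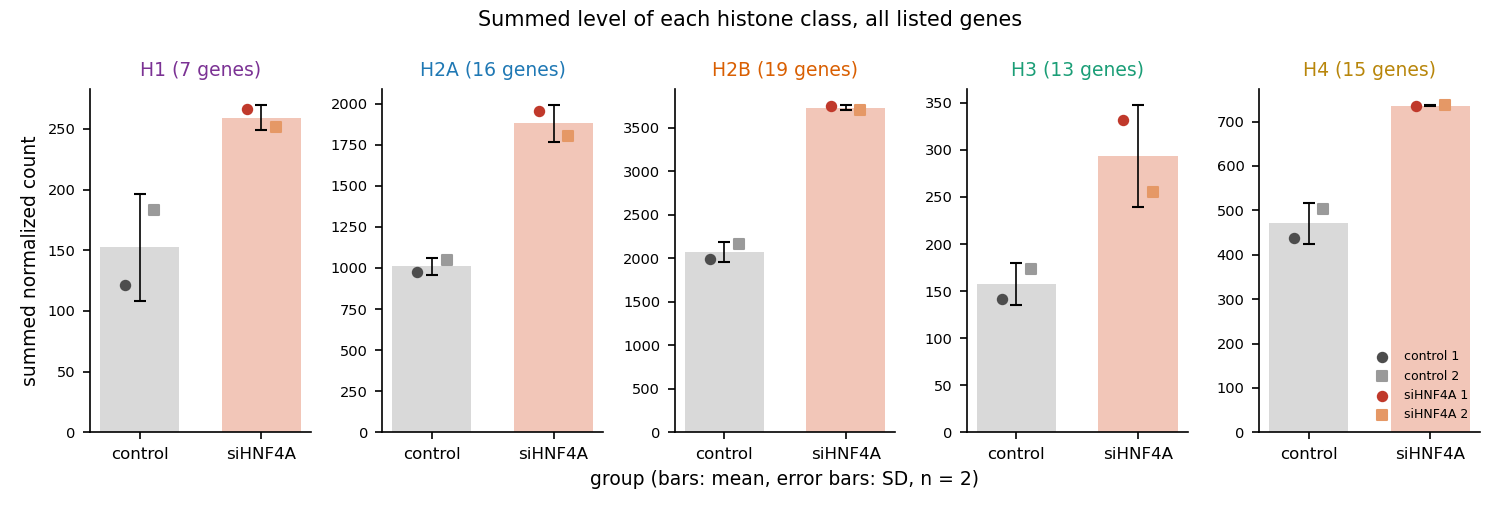
Summed normalized counts (y axis, from 0, a scale for each panel) of all listed genes of each histone class in control and siHNF4A libraries. Bars are means of 2 libraries with SD and points are single libraries; both siHNF4A points lie above both control points in all 5 panels.

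Called histone genes lay on chromosomes 1, 6 and 12. HIST1, the large cluster on chromosome 6, had 53 symbols, 23 tested genes and 9 calls, with a median log2 fold change of 0.82 and a ratio of sums of 1.84. HIST2 on chromosome 1 had 14 symbols, 10 tested genes and 4 calls, with a median of 0.59 and a ratio of 1.64. HIST3, also on chromosome 1, had 2 symbols and no call, and HIST4H4 on chromosome 12, the only HIST4 gene, was called. RefSeq marks 8 of the 70 symbols as pseudogenes. Of these 3 were tested, none was called, and their summed values had a ratio of 1.27.

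Promoters of histone classes are known for particular sequence elements, which were searched here. Of the 70 genes 57 had an entry in the RefSeq promoter table (GRCh38.p14), 31 of them tested. The 250 bases before the start are shown 5′ to 3′ on the strand of the gene, with matches to the 4 motifs below in capitals, for the 5 called H2B genes, for 1 called gene each of H1, H2A and H3, and for the 2 called H4 genes, of which HIST2H4B holds none of the motifs. In RefSeq HIST1H3D and the H2A gene HIST1H2AD have the same start, 223 bases from that of HIST1H2BF. The window shown for HIST1H3D is therefore also that of HIST1H2AD and is not that of an H3 gene alone.
HIST1H2BK, chr6:27146859-27147108, minus strand: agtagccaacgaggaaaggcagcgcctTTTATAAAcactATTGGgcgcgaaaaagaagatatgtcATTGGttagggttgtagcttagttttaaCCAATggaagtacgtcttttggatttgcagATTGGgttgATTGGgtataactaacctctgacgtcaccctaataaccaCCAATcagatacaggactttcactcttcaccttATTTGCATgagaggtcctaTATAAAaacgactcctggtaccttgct
HIST1H2BJ, chr6:27132796-27133045, minus strand: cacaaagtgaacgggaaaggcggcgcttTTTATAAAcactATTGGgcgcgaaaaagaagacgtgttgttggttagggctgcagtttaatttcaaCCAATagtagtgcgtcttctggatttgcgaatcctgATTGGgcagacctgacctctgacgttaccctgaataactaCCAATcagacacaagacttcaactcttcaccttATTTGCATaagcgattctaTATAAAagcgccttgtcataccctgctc
HIST1H2BG, chr6:26216689-26216938, minus strand: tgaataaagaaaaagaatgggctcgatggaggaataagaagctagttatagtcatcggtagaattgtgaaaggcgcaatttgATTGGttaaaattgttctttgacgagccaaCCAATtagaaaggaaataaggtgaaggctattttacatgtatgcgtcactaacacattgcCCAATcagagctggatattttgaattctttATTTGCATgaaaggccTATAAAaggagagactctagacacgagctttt
HIST1H2BD, chr6:26157871-26158120, plus strand: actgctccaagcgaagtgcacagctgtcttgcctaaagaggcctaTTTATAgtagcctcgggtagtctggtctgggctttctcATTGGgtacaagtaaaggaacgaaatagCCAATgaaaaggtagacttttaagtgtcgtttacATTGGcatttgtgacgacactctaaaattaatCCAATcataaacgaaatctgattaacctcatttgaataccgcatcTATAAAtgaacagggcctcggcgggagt
HIST2H2BE, chr1:149886683-149886932, minus strand: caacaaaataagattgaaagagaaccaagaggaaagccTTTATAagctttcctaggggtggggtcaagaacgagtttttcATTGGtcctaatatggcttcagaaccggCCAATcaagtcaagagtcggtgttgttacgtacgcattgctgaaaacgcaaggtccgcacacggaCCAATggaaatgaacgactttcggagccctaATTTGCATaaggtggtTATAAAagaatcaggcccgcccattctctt
HIST1H2AC, chr6:26123922-26124171, plus strand: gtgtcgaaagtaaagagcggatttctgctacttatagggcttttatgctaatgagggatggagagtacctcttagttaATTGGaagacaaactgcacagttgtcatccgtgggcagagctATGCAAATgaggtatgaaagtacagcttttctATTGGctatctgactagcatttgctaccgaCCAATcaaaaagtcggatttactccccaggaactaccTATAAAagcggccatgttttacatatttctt
HIST1H3D, chr6:26199294-26199543, minus strand: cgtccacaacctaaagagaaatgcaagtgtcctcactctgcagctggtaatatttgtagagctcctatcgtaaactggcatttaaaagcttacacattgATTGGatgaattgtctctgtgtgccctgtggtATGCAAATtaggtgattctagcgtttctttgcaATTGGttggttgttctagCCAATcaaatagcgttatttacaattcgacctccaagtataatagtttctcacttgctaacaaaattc
HIST1H1C, chr6:26056471-26056720, minus strand: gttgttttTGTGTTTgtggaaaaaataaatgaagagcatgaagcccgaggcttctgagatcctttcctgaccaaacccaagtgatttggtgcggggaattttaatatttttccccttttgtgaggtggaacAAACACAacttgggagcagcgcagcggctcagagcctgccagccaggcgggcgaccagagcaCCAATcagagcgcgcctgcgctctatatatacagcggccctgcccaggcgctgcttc
HIST4H4, chr12:14771132-14771381, minus strand: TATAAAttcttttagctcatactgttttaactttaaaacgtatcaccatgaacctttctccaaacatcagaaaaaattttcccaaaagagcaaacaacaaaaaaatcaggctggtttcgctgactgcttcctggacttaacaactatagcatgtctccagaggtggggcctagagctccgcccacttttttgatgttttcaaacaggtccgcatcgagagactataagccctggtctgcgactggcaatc
HIST2H4B, chr1:149861160-149861409, minus strand: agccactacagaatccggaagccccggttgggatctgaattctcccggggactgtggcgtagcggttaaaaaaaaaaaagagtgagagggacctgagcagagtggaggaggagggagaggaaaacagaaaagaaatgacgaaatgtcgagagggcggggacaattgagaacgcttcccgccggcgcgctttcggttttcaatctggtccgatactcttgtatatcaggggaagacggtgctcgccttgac

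The octamer ATTTGCAT, a binding site of POU transcription factors, was searched on both strands, as were TATAAA (the TATA box), CCAAT and AAACACA (the H1 box). A stretch TTTATAAA holds TATAAA on both strands, so the 2 matches overlap there. The octamer was found in 1.66% of all 27305 promoter windows of this length, in 11 of 15 H2B and 9 of 14 H2A promoters, in 1 of 10 H3 promoters and in none of 6 H1 or 12 H4 promoters. Head-to-head genes share these bases, so these and the counts below are of genes, not of separate sites. The octamer of HIST1H2AC is that of HIST1H2BC, that of HIST1H2AE is that of HIST1H2BG, and that of HIST1H2AG is that of HIST1H2BJ. The H3 match, in HIST1H3D, is that of HIST1H2BF and lies in the window of HIST1H2AD. In HIST1H2BK, HIST2H2BE, HIST1H2BJ and HIST1H2BG it starts 46, 46, 47 and 48 bases before the start of the gene, and TATAAA follows at 27, 30, 28 and 32 bases. HIST1H2BD holds TATAAA and CCAAT but no octamer match in this window, and it was called like the others. TATAAA was present in 11.1% of all windows and in 3 of 6 H1, 10 of 14 H2A, 10 of 15 H2B, 9 of 10 H3 and 7 of 12 H4 promoters. A match counted at any position and on either strand, so not each match is placed as the TATA box of its gene. In HIST4H4 the only match starts 250 bases before the start. In HIST1H2AE, HIST1H2BC and HIST1H3E it lies only on the opposite strand, at 206, 220 and 157 bases. CCAAT was present in 33.0% of all windows, in every H1, H2A, H2B and H3 promoter with an entry and in 2 of 12 H4 promoters. AAACACA was present in 4.95% of all windows and in 6 of 6 H1 promoters, and in no other histone promoter of the table. Among the 31 tested genes with an entry 13 held the octamer (41.9%), 19 held TATAAA (61.3%) and 25 held CCAAT (80.6%). Among the 14 called genes 8 held the octamer (57.1%), 11 held TATAAA (78.6%) and 12 held CCAAT (85.7%). These differences were not tested. HIST4H4 and HIST2H4B, both called, hold neither the octamer nor CCAAT in these bases.

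Among the 7 H1 symbols HIST1H1C had the highest level. HIST1H1C, which encodes the H1.2 linker histone, went from 94.1 and 148 to 217 and 202 normalized counts. It rose by 0.82 on the log2 scale (SE 0.22, adjusted p = 0.0342 in limma), and its control libraries differed from each other by more than its knockdown libraries did. Without control 1 its log2 fold change was 0.50 and it was no longer called, and it was also lost without siHNF4A 1 or 2. The other tested H1 symbol, the pseudogene HIST1H1PS1, had 19.9, 18.8, 21.5 and 20.5, a log2 fold change of 0.11 that was not past the threshold. All 7 H1 symbols had both knockdown libraries above both controls, as did 26.9% of all tested genes and 19.4% of all symbols averaging 1 to 10. Of the 7 symbols 5 averaged under 10, and the depth of the siHNF4A libraries was greater (1.37 and 1.22 relative to control 1). The part of depth in these low values was not tested. The H1 median of 0.47 therefore rests on 2 genes, and it was 0.97 when every gene above 0 was included and 0.82 with the filter at 50.

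Of 8 tested H2A genes 5 were called higher and none lower, beside 6.02% called higher over all genes. All 8 had a positive log2 fold change, with a median of 0.84. HIST1H2AC, a core H2A gene that can give polyadenylated transcripts, went from 393 and 446 to 800.1 and 707, a log2 fold change of 0.84 (SE 0.11, adjusted p = 0.00161 in limma). HIST1H2AG had 159 and 157 against 296 and 327, a log2 fold change of 0.97 (SE 0.14, adjusted p = 0.00231). The groups of both genes are far apart relative to the spread within them. HIST1H2AE had 15.9 and 26.4 against 68.1 and 43.7, a log2 fold change of 1.37 (SE 0.37, adjusted p = 0.0357), with a wider spread in each group and a call that was lost without control 1, siHNF4A 1 or siHNF4A 2. HIST2H2AA3 and HIST2H2AA4 are near-identical copies on chromosome 1 whose reads the counting may have split. HIST2H2AA3 had 97.7, 88.6, 169 and 165 in control 1, control 2, siHNF4A 1 and siHNF4A 2, and HIST2H2AA4 had 182, 221, 452 and 410.2. Their log2 fold changes were 0.84 (adjusted p = 0.0133) and 1.10 (adjusted p = 0.0013), and the call of HIST2H2AA3 was lost without siHNF4A 1 or 2. Summed as 1 gene they gave 295 ± 20.9 and 598 ± 32.2, a log2 fold change of 1.02 (SE 0.12, adjusted p = 6.93e-04 in limma). HIST3H2A (72.2, 56.0, 106 and 77.2, log2 fold change 0.50), HIST1H2AI and HIST1H2AM (20.8, 20.9, 20.3 and 27.4, log2 fold change 0.17) were not past the threshold.

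H2B genes held the largest normalized counts of the family. Of 12 tested genes 5 were called higher and none lower, beside 6.02% called higher over all genes. Log2 fold changes were positive in 11 of the 12, with a median of 0.66. HIST1H2BK went from 1349 and 1447 to 2369 and 2346, a log2 fold change of 0.75 (SE 0.073, adjusted p = 2.86e-04 in limma). It overlaps HIST1H4I in RefSeq, and the labels do not say if reads were counted by strand. HIST1H2BD had 188 and 215 against 557 and 549, a log2 fold change of 1.45 (SE 0.13, adjusted p = 1.82e-04), and it overlaps 2 other RefSeq genes. In both genes the groups lay far apart, and HIST1H2BD changed by the larger fold.

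HIST1H2BG showed the largest log2 fold change among the tested histone genes. It went from 28.2 and 27.4 to 101 and 90.5, a log2 fold change of 1.75 (SE 0.26, adjusted p = 0.00223 in limma). HIST1H2BJ had 62.4 and 60.5 against 156 and 157, a log2 fold change of 1.33 (SE 0.19, adjusted p = 0.00219). HIST2H2BE, from the HIST2 cluster and known to be expressed also outside S phase, had 138 and 162 against 230.1 and 212, a log2 fold change of 0.56 (SE 0.16, adjusted p = 0.0476). Its call lay close to the threshold and was lost without control 1, siHNF4A 1 or siHNF4A 2. HIST1H2BN was the H2B gene of lowest change among those averaging 50 or more, with 55.9, 78.6, 72.0 and 96.8, overlapping groups and a log2 fold change of 0.33. The other 5 H2B genes, HIST1H2BC, HIST1H2BF, HIST1H2BH, HIST2H2BC and HIST2H2BF, were not called, and their log2 fold changes ran from 0.29 in HIST1H2BH (13.5, 16.4, 16.7 and 20.4) to 1.18 in HIST2H2BF (8.53, 14.1, 26.2 and 26.1). In each of these 5 both knockdown libraries were above both controls. HIST2H2BD, a pseudogene, was the only tested member with a negative log2 fold change (-0.038, values 14.7, 17.6, 18.5 and 13.2).

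**Figure D3:**
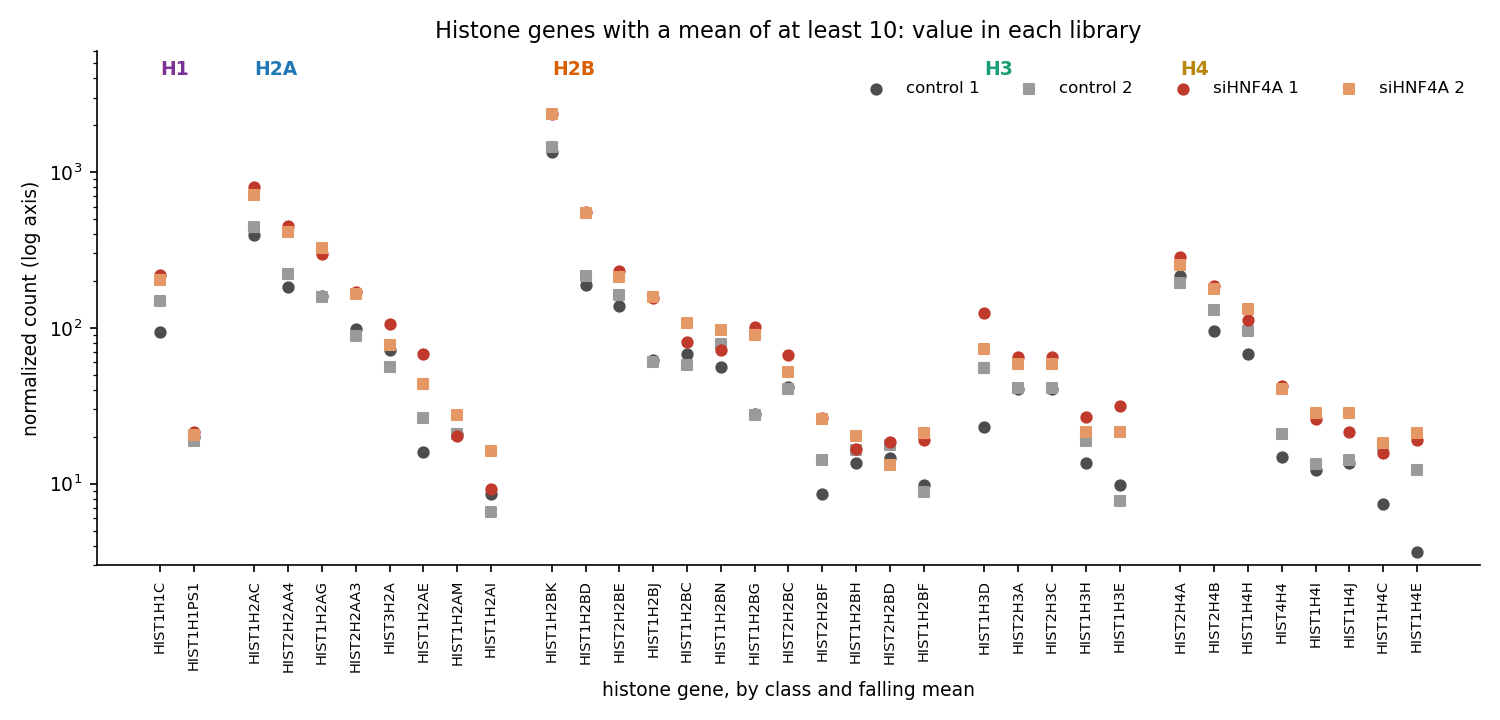
Normalized count (y axis, log scale) of each of the 35 tested histone genes in the 4 RNA-seq libraries, ordered by class and by falling mean (x axis). In 31 genes both siHNF4A points lie above both control points.

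H3 genes had low values. HIST1H3D went from 23.1 and 54.9 to 124 and 73.3, a log2 fold change of 1.39 (SE 0.40, adjusted p = 0.0459 in limma). It was the 1 call among 5 tested H3 genes, its replicates were far apart in both groups, and its log2 fold change was 0.79 without control 1 and 2.0003 without control 2. The call was lost without control 1, siHNF4A 1 or siHNF4A 2, and the gene overlaps HIST1H2AD in RefSeq. HIST1H3E had 9.80 and 7.68 against 31.5 and 21.3, a log2 fold change of 1.48 (SE 0.44) with an adjusted p of 0.0522 in limma, not past the threshold. It is 1 of the 4 members, with HIST1H2AI, HIST1H2BF and HIST1H4E, that averaged 10 or more only through the knockdown libraries. HIST1H3E was called with a pseudocount of 5, with a robust variance fit and with a replicate block. It was not called in the other settings that tested it with all 4 libraries. Its log2 fold change ran from 1.18 to 1.75 over all alternatives. HIST2H3A and HIST2H3C carried identical values in each library (40.3, 41.1, 64.8 and 58.7), so the table holds 1 measurement for both, and their log2 fold change of 0.59 was not past the threshold. Counting them once moved the H3 median from 0.59 to 0.99. That median is over 4 genes with log2 fold changes of 0.56, 0.59, 1.39 and 1.48. The highest is HIST1H3E, which entered only through the knockdown libraries, so the move rests in part on that selection. HIST1H3H had 13.5, 18.7, 26.8 and 21.3, with a log2 fold change of 0.56.

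Of 8 tested H4 genes 2 were called higher and none lower, beside 6.02% called higher over all genes. All 8 had a positive log2 fold change, with a median of 0.75. HIST2H4A and HIST2H4B are copies with identical promoter windows (250 of 250 bases), and HIST2H4B overlaps 3 other histone genes in RefSeq. HIST2H4A had 214, 194, 286 and 254 in control 1, control 2, siHNF4A 1 and siHNF4A 2, a log2 fold change of 0.40 that was not past the threshold (adjusted p = 0.0995). HIST2H4B had 95.2, 129, 187 and 179, a log2 fold change of 0.71 (SE 0.19, adjusted p = 0.0369 in limma). As 1 gene the copies gave 317 ± 9.77 and 453 ± 27.7, a log2 fold change of 0.51 (SE 0.12, adjusted p = 0.0183). HIST4H4, alone on chromosome 12, had 14.9 and 20.8 against 42.4 and 40.6, a log2 fold change of 1.19 (SE 0.35, adjusted p = 0.0471). The calls of HIST2H4B and HIST4H4 were lost without control 1, siHNF4A 1 or siHNF4A 2. HIST1H4H had 67.5, 95.4, 112 and 132, and its log2 fold change of 0.59 was not past the threshold (adjusted p = 0.12). It ranged from 0.35 to 0.84 over all alternatives and was called without control 2 (adjusted p = 0.0369 in limma). HIST1H4C, HIST1H4E, HIST1H4I and HIST1H4J were not called either, at log2 fold changes from 0.54 in HIST1H4C (7.35, 17.5, 15.8 and 18.3) to 1.42 in HIST1H4E (3.67, 12.2, 18.9 and 21.3). In HIST1H4C the groups overlapped, and HIST1H4E ran from 0.67 without control 1 to 2.18 without control 2, where it was called (adjusted p = 0.0256 in limma).

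Some H2A and H2B genes start head to head and share the bases between them. RefSeq places 12 pairs of the 70 genes this way within 1000 bases, with 194 to 979 bases between starts, and in 4 pairs both genes were tested. HIST1H2BG and HIST1H2AE rose together (1.75 and 1.37 on the log2 scale), as did HIST1H2BJ and HIST1H2AG (1.33 and 0.97). In the pair of HIST1H2BC and HIST1H2AC the second gene rose by 0.84, while HIST1H2BC had a change of 0.57 (adjusted p = 0.15 in limma). In the pair of HIST1H3D and HIST1H2BF the first was called and HIST1H2BF (log2 fold change 1.03, adjusted p = 0.15) was not. HIST1H2BF also forms a pair with HIST1H2AD, which has the same RefSeq start as HIST1H3D. A partner could also stay near 0, as HIST2H2AC, which faces HIST2H2BE, had a mean of 2.32 in the control and 1.44 in the knockdown.

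Other genes lie inside the HIST1 stretch. Between the first and the last HIST1 gene in RefSeq order, 22 other genes were in the table and 15 were tested. Of these 1 was called, the zinc finger gene ZNF184 with a log2 fold change of 0.54, and the median of the 15 was 0.056. The 1 of 15 is near the 6.02% called higher over all genes. The call of ZNF184 was lost without control 1, siHNF4A 1 or siHNF4A 2 and without the filter on low values, with adjusted p-values in limma up to 0.16.

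The genes of 5 histones known to give polyadenylated transcripts, HIST1H1C, HIST1H2AC, HIST1H2BD, HIST1H2BK and HIST2H2BE, were all called higher, with a median log2 fold change of 0.82, beside 7.51% called higher among all genes averaging 100 or more. The calls of HIST1H1C and HIST2H2BE were lost without control 1, siHNF4A 1 or siHNF4A 2, as given above. This list was written with earlier results of these libraries known and is not independent evidence of its direction. It holds the genes with the highest means of their classes in H1, H2A and H2B.

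Replication-independent histones were compared as genes of like product and other control. Of 21 symbols 16 were in the table and 10 were tested, and 2 were called higher and none lower. Log2 fold changes were positive in 5 and negative in 5, with a median of 0.032. Over all genes 6.02% were called higher and 8.11% lower. H2AFJ, which encodes the H2A.J variant, went from 698 and 748 to 1241 and 1196, a log2 fold change of 0.75 (SE 0.087, adjusted p = 7.19e-04 in limma). H1F0, the H1.0 linker variant of resting cells, went from 900.5 and 983 to 1232 and 1132, a log2 fold change of 0.33 (SE 0.090, adjusted p = 0.0383). The call of H1F0 was lost without control 1, siHNF4A 1 or siHNF4A 2 and without the filter, with adjusted p-values up to 0.21. H2AFZ (H2A.Z), H2AFX (H2A.X), H3F3A and H3F3B (both H3.3) and CENPA (the centromeric H3) had log2 fold changes of -0.054, -0.028, 0.092, -0.042 and 0.12, and none was called. The signs of H2AFZ, H2AFX and H3F3B flipped after quantile normalization, and that of H2AFX also after rescaling to equal totals.

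Factors that make and process histone mRNA were then compared. Of 24 tested genes none was called higher and 3 were called lower, with a median log2 fold change of -0.046. The 12.5% called lower stands beside 8.11% called lower over all genes, and 14.1% were called in either direction there. All 24 averaged 100 or more, and of the 10918 genes at that level 1208 were called lower. SLBP, which binds the stem-loop of histone mRNAs, went from 2872 and 2999.9 to 2409 and 2361 and fell by 0.30 on the log2 scale (adjusted p = 0.0149 in limma). LSM11, a subunit of the U7 particle that trims the 3′ end, fell by 0.53 (adjusted p = 0.0138), and ERI1, an exonuclease that acts on the stem-loop, fell by 0.40 (adjusted p = 0.0447). The calls of all 3 were lost without siHNF4A 1 and without the filter, those of SLBP and ERI1 also without control 2, and that of SLBP also without siHNF4A 2. The call of ERI1 was lost after quantile normalization and at equal totals as well, and its log2 fold change was -0.22 without siHNF4A 1. NPAT, the coactivator of histone gene transcription, had 615, 808, 794 and 923, with overlapping groups and a log2 fold change of 0.28 (adjusted p = 0.20). With 1 library left out its log2 fold change lay between 0.085 and 0.48, and without control 2 it was called (adjusted p = 0.0169 in limma).

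S-phase genes and histone chaperones had calls in both directions. Of 32 S-phase genes 2 were called higher and 6 lower, with a median log2 fold change of -0.079. The 18.8% called lower stands beside 8.11% over all genes, and the 6.25% called higher beside 6.02%. All 32 averaged 100 or more, and of the 10918 genes at that level 1208 were called lower and 7.51% higher. POLE, a replicative DNA polymerase, rose by 0.51, and POLA1 and RFC3, of DNA polymerase alpha and the clamp loader, fell by 0.49 and 0.37. Of 25 histone chaperones and carriers 2 were called higher and 5 lower, with a median of -0.053. The 5 of 25 called lower also stand beside 8.11% over all genes and 1208 of 10918 at a mean of 100 or more, a level that all 25 reached. Among the 5 were HIRA, a chaperone of H3.3, which fell by 0.42, and SSRP1, a subunit of the FACT complex, which fell by 0.25. The importin IPO4, also among them, fell by 0.39. MCM2 is in both lists. The calls of RFC3, HIRA, SSRP1 and IPO4 were lost without the filter. RFC3 was also lost without siHNF4A 1, HIRA without siHNF4A 2, IPO4 without either of them and SSRP1 without either of them or control 2. POLE and POLA1 were called in each setting that kept the trend.

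**Figure D4:**
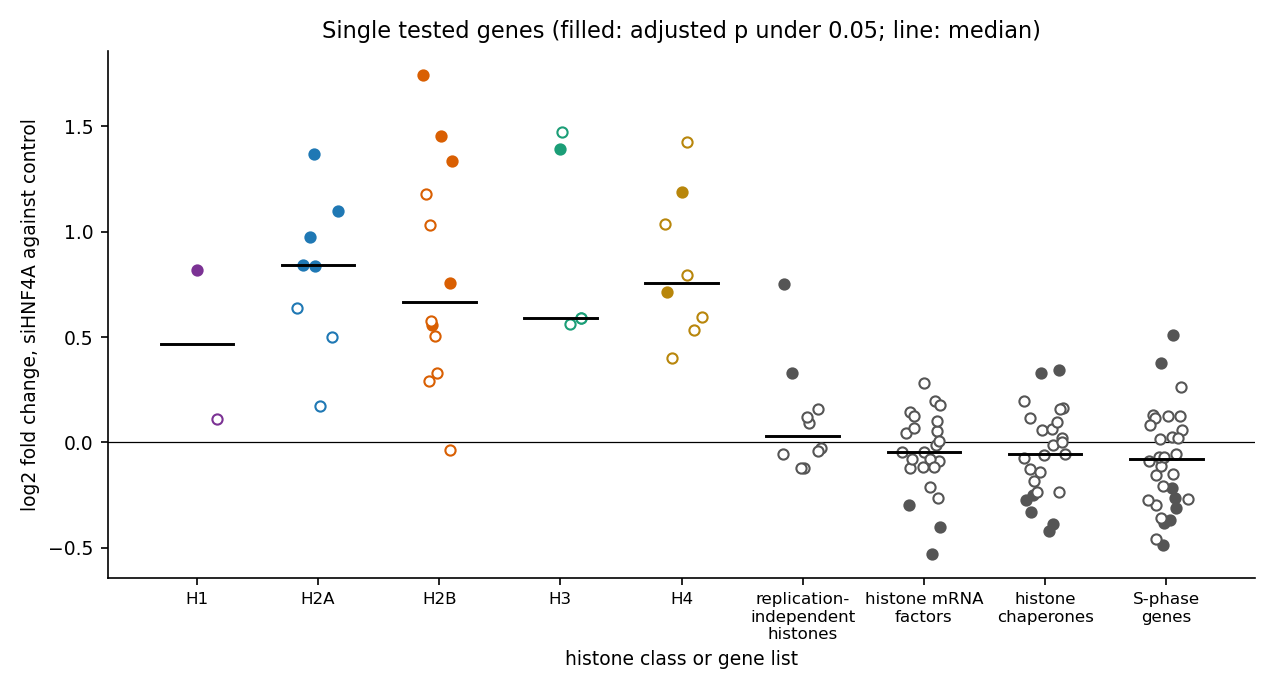
Log2 fold change in siHNF4A against control (y axis) of single tested genes of each histone class and of 4 gene lists (x axis). Filled circles are called genes and lines are medians, which lie between 0.47 and 0.84 for the histone classes and between -0.079 and 0.032 for the lists.

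The binding data were examined over chromosome 6 from 26000000 to 29000000, positions as the authors deposited them, on hg19 per the submitters' processing notes. Of 5494 HNF4A peaks 55 fell in this interval, 1.001% of the list (exact 95% interval 0.755 to 1.30%) and 13.7% of the 401 HNF4A peaks of the chromosome. When the genome was laid out in windows of 3 Mb from the start of the interval, it ranked 1 among 850 windows with a peak, whose median was 5 peaks. The next densest window, on chromosome 11, held 47. The interval's 55 peaks also exceeded those of each window when the grid was moved by 1 or 2 Mb, where the densest windows held 47 and 38. The interval is part of the rule by which the histone genes were taken up, so its rank is a description.

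HNF4A peaks were unevenly spread within the interval. There were 10 between 26500001 and 26600000, 6 between 26300001 and 26400000 and 7 between 28900001 and 29000000, and none between the peak that ends at 26572942 and the one that starts at 27100530. The authors' fold enrichment had a median of 5.88 in the interval and of 6.31 in the rest of the list. The strongest peak, chr6:26322194-26323432, had a fold of 15.7 and ranked 125 in the list, followed by chr6:26257351-26257946 with 13.2 and chr6:27219319-27220219 with 13.0. With a −log10 q of at least 5, 36 of the 55 remained.

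The same interval held 6 of 2607 GATA4 peaks, 0.230% of the list (exact 95% interval 0.0845 to 0.5003%), and the interval ranked 92 among 749 windows with a peak, whose median was 3 peaks. Of the 6 peaks 4 overlapped an HNF4A peak, among them the strongest, chr6:26257404-26257752 with a fold of 8.92, which lies in the HNF4A peak with a fold of 13.2. In the remaining GATA4 list 17.3% of peaks overlapped an HNF4A peak, and the 6 peaks are too few for a comparison. These intervals cover counting error only, each list comes from 1 library, and there is no replicate check.

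Peaks were not assigned to histone genes, because no annotation of hg19 was used here and the promoters above are placed on GRCh38.p14. Beside histone genes, the stretch from the first to the last HIST1 gene holds 98 of the 443 nuclear transfer RNA genes of that RefSeq annotation. Whether the HNF4A peaks lie at histone, transfer RNA or other genes was not tested.

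**Figure D5:**
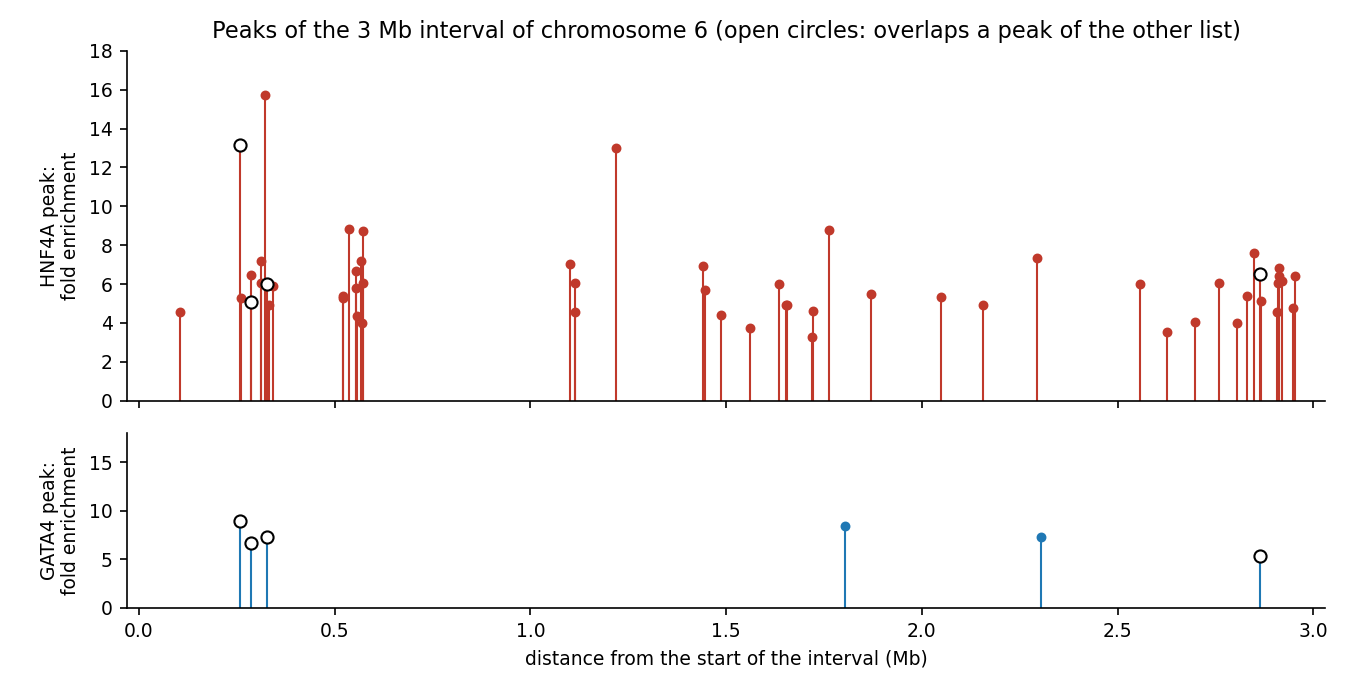
The authors' fold enrichment (y axis) of the 55 HNF4A peaks (top) and the 6 GATA4 peaks (bottom) by distance from the start of the 3 Mb interval in Mb (x axis). Open circles mark peaks that overlap a peak of the other list; the HNF4A peaks gather near 0.3, 0.5 and 2.9 Mb.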

How the data were processed

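Total RNA was sequenced after a standard Illumina library preparation, per the labels' protocols, from 2 control and 2 siHNF4A libraries of ESO26 cells, and 2 ChIP-seq libraries gave peak lists. The 2 libraries of circular chromosome conformation capture were not analysed here. The submitters' processing notes name hg19, Bowtie, Bowtie2, Trim Galore, Picard and MACS2, without roles or versions. The normalized counts are a signal value that the authors deposited per gene symbol, and the normalization method, the counting program and its use of strand are not given in the sources used here. Whole reads were not recovered, so no count model was fitted, the absolute depth is unknown and expression values carry no counting intervals. In the peak lists the authors deposited a fold enrichment (a ratio), −log10 p and −log10 q values and a score per peak, called in each library alone.

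Genes with a mean of 10 or more were compared on log2(normalized count + 1) with limma 3.58.1 in R 4.3.3, using lmFit and eBayes with a variance trend, and called at a Benjamini-Hochberg adjusted p under 0.05. Log2 fold changes on this scale understate those of low genes. The fit was tested on simulated data. Samples were grouped by their titles. Summed class values were compared by an exact two-sided permutation test. Peaks were shared where they overlapped by at least 1 base, and intervals are exact binomial (Clopper-Pearson). Histone symbols were matched to RefSeq (GRCh38.p14) by symbol or synonym, and all 70 matched.

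Named are HNF4A, every called histone gene, the 3 genes with the highest mean and those with the highest and lowest log2 fold change (mean of 50 or more) of each class, the genes next to the limit of 10, called genes of the replication-independent and mRNA factor lists with 7 fixed genes (NPAT, SLBP, H2AFZ, H2AFX, H3F3A, H3F3B and CENPA), and up to 3 genes of each other list. HIST1H1PS1, HIST1H3E, HIST1H3H, HIST2H2BD and the pair members are given by their level, and ZNF184, HIST1H3PS1, HIST2H2AC, the named genes of the marker lists and the genes of the closing paragraph were singled out after their values were seen. The members, lists and tests were chosen with earlier results of these data known.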

Additional observations from a re-analysis of the deposited data

How the results depend on the processing

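Counting copies once, the filter on the control mean and the moved windows were added after the data had been seen. The planned sum of genes with identical proteins was not run, since no protein sequences were used. Calls of histone genes (14) went to 7 without the filter, 9 after quantile normalization and 0 without the variance trend, and lay between 7 and 16 with 1 library left out. Calls over all genes (2202) went to 726 and, without the trend, to 0 (3524 with an unadjusted p under 0.05), and lay between 906 and 2413 with 1 library left out. With 1 library left out, its group's lone library is assumed to vary like the other group. The fit without a filter tested 30247 genes; the causes were not tested further. With the replicate block 15 histone genes and 2428 genes in all were called, and all 14 histone calls were kept. Deviations of same-numbered libraries from their group means had a Pearson correlation of -0.019 across 15577 genes, so no pairing was assumed.

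The median of the histone genes (0.75) was 0.69 with a pseudocount of 5, 0.67 after quantile normalization and 0.69 to 0.89 with 1 library left out. The H1 median was 0.97 without the filter and 0.82 with the filter at 50. The H2A median was 0.59 without the filter, 0.88 at equal totals and 0.85 to 0.92 with 1 library left out. The H2B median was 0.57 with a control mean of 10 or more and 0.70 to 0.76 with 1 library left out. The H3 median was 0.99 with copies counted once, which includes HIST1H3E, a gene that averaged 10 or more only through the knockdown libraries. With 1 library left out the H3 median was 0.52 to 0.78 and the H4 median 0.59 to 1.10. At a −log10 q of at least 5 the interval held 36 HNF4A peaks, and 2 GATA4 peaks were shared.

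Signs turned only in genes that were not called. After quantile normalization HIST1H1PS1 went to -0.026, H2AFZ to 0.013, H2AFX to 0.0119 and H3F3B to 0.051, and at equal totals H2AFX went to 0.011. With 1 library left out, HIST1H2AM lay between -0.035 and 0.38, HIST1H4C between -0.040 and 1.11, HIST2H2BD between -0.27 and 0.19, H2AFX between -0.10 and 0.046 and H3F3B between -0.12 and 0.033.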

Other observations

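The 35 histone symbols averaging under 10 normalized counts were not tested, and together they summed to 70.1 ± 0.83 in control and 136 ± 9.22 in siHNF4A libraries (SD, n = 2). Of these 25 averaged 1 or more. In 13 of the 25 both siHNF4A libraries lay above both controls, against 19.4% of all 9172 symbols averaging 1 to 10, and in HIST2H2AC and HIST3H2BB below, against 15.2%. HIST1H4D had 2.46, 2.20, 10.3 and 9.17 in control 1, control 2, siHNF4A 1 and siHNF4A 2, HIST1H4K had 3.69, 2.19, 9.40 and 18.4, and HIST1H2AK had 4.90, 3.29, 13.0 and 9.15. The linker histone gene HIST1H1E had 2.44, 7.73, 13.6 and 12.2, and HIST1H1B had 2.44, 8.84, 10.00 and 9.13. The testis-specific linker histone gene HIST1H1T had 1.22, 0, 1.82 and 4.05. Values of this size stand for few reads, since the most frequent smallest value was 1.23, 1.11, 0.90 and 1.01 in the same 4 libraries.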
